A study of Mus musculus with 6 samples.

Results

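The T Reg class is the set of cells that the authors' deposited annotation named T Reg in single-cell RNA counts of dissociated mouse lung. Its members were taken from that name alone, and they numbered 940 of the 55882 cells with a class in the series, or of the 33061 such cells at postnatal day 21. Regulatory T cells are the CD4 T cells that restrain immune responses. They are defined by the transcription factor Foxp3 and carry the interleukin 2 receptor chain CD25 (Il2ra), the checkpoint receptor Ctla4 and the costimulatory receptor Icos. Group 2 innate lymphoid cells (ILC2) have no rearranged antigen receptor, yet share CD25, Icos and the transcription factor Gata3 with them. In the lung ILC2 respond to the epithelial alarmin interleukin 33 through the receptor ST2 (Il1rl1) and make the type 2 cytokines interleukin 5 and interleukin 13. Some Foxp3 cells of tissues carry ST2 as well. A name that rests on shared genes can therefore cover several kinds of lymphocyte, and the values below give the markers that separate them.

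The lungs came from C57BL/6N mice labelled WT (wild type), and each library was a pool of 3 mice of 1 sex. The 4 libraries used here were female room air, male room air, female hyperoxia and male hyperoxia, all taken at postnatal day 21, and runs of 4 values below keep that order. The hyperoxia mice breathed 95% oxygen between postnatal days 1 and 5 and room air from then on, and the room air groups had 21% oxygen throughout. The pair of room air libraries at postnatal day 1 held no cell of this class. With 1 library per sex and treatment no group had a replicate. No p-value below therefore measures the spread between animals, or between pools of 1 group. In the fits of the 4 libraries, a gene's own spread is what the terms for sex and treatment leave over. That is how far the change with treatment differed between the sexes, where an effect of sex and one of the pool cannot be told apart. edgeR draws this spread towards a value shared among genes, and its p-values rest on both. The weight of a gene's own spread differed between fits.

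The class had 231, 119, 278 and 312 cells, with 2850216, 1343003, 3262036 and 3197663 unique molecular identifiers (UMIs, 1 per counted transcript). The median depth was 11165, 10396, 11055 and 9197.5 UMIs per cell. A count of 0 over the whole class therefore left room for up to 1.05, 2.23, 0.92 and 0.938 CPM, the UMIs of a gene scaled to a library sum of 1000000 over the class. Pairs of day 21 libraries shared 9 to 25 cell barcodes among classed cells, and none of these was a T Reg cell in both. In the female hyperoxia library 107 of the 278 cells (38.5%) had no UMI of Xist, the RNA of the inactive X chromosome, against 8 of 231 in female room air. They held 0 UMIs of the Y-linked genes Uty, Ddx3y and Eif2s3y and had a median depth of 11063 UMIs. Without them the counts of called genes given below stayed at 0 for treatment and went from 5 to 3 for sex. The count for the difference from the T Cell class stayed at 0 with the Xist-free cells of that library left out of both classes. Intervals for single libraries are exact 95% intervals and cover counting error only. The authors' T Cell class (2602 cells, median depth 15432, 10609.5, 11171 and 9735 UMIs) and their gCap class of general capillary endothelial cells (8512 cells, median depth 8693.5, 7711, 8243.5 and 7226 UMIs) served as comparisons. The endothelial cells should lack lymphoid genes and show the background. The cells were clustered on these same genes, so class against class is a description without a test.

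Of the markers that define regulatory T cells, the receptors that ILC2 also carry were widespread and Foxp3 was not. Foxp3 (chromosome X, 7573644 to 7595245, GRCm38) had a UMI in 154 of 940 cells, which is 16.4% (95% interval 14.1% to 18.9%). By library the share was 8.66%, 15.1%, 19.8% and 19.6%. Over the 4 libraries together it was 4.27% in the T Cell class and 0.106% in endothelial cells. By these pooled shares the class held more Foxp3 than either and far more than background, while most of its cells showed none. In female room air the T Reg and T Cell classes were close, with Foxp3 in 20 of 231 and 14 of 184 cells. Il2ra (chromosome 2, 11642807 to 11693193) had a UMI in 75.3%, 63.9%, 71.2% and 69.2% of cells against 4.3% of the T Cell class and 0.176% of endothelial cells. Icos (chromosome 1, 60977927 to 61000320) was found in 82.7%, 74.8%, 79.5% and 73.4%, against 49.0% of the T Cell class. Ctla4 (chromosome 1, 60887000 to 60915832) lay between these, at 29.4%, 36.1%, 35.6% and 33.01% against 24.3% of the T Cell class. For none of these genes did the endothelial share pass 0.752%.

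Other genes of the regulatory T cell list were split in the same way. Ikzf2, which encodes the transcription factor Helios, had a UMI in 81.6% of cells, and Tnfrsf18 (the receptor GITR) in 51.5%. The receptor OX40 (Tnfrsf4) was found in 16.6%, Izumo1r (folate receptor 4) in 12.3% and the checkpoint receptor Tigit in 6.81%. Gpr83, an orphan receptor of regulatory T cells, was in 0.319% of cells against 8.72% of the T Cell class. Of the 12 genes on the list, 5 were in at least 25% of the cells and 10 had a higher CPM than in the T Cell class. Lrrc32, the docking protein for latent TGF-beta, is also an endothelial gene, and its 3.72% lay under the 26.2% of endothelial cells.

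Several type 2 lymphoid markers were widespread as well. Il1rl1 (chromosome 1, 40429570 to 40465415) had a UMI in 51.1%, 49.6%, 56.1% and 58.3% of cells, against 1.35% of the T Cell class and 0.129% of endothelial cells. Arg1 (chromosome 10, 24915221 to 24927484), the arginase that lung ILC2 are known to express, was in 58.0%, 47.9%, 44.6% and 43.9%, against 0.653% and 0.317%. All 4 libraries were alike in this, and none came near the values of either comparison class. Gata3 (chromosome 2, 9857078 to 9890034) was in 80.3% of cells, with 12.8% of endothelial cells as background. The interleukin 25 receptor chain Il17rb was in 34.4% and the interleukin 9 receptor Il9r in 40.6%. The cytokines themselves were sparser: Il5 had a UMI in 11.0% of cells and Il13 in 5.11%. Il13 was found in 0 of 2602 cells of the T Cell class, which allows up to 0.115% of cells with a UMI, and in 0 of 8512 endothelial cells. A cell can express a gene without a UMI of it, so such limits are for detection only. Of the 21 genes on the type 2 list, 8 were in at least 25% of cells and 20 had a higher CPM than in the T Cell class. Il9 was found in 0 of 940 cells, which allows up to 0.319% of cells with a UMI.

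**Figure D1:**
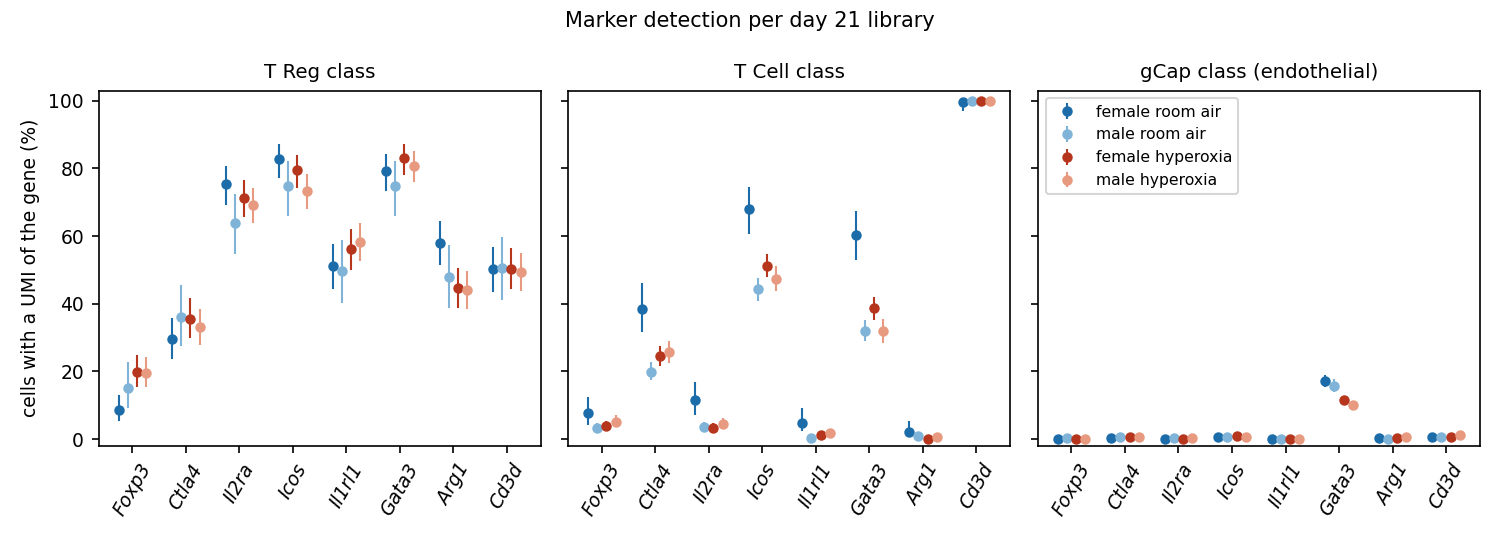
Share of cells with at least 1 UMI of each gene (vertical axis, percent) in the T Reg, T Cell and gCap classes. Each point is 1 day 21 library and each bar an exact 95% binomial interval. In the T Reg class Foxp3 sits at 8.66% to 19.8%, below Il1rl1 at 49.6% to 58.3% and Cd3d at 49.4% to 50.4%. Over the 4 libraries together, Cd3d is at 99.9% and Il1rl1 at 1.35% in the T Cell class. In female room air Il1rl1 is in 9 of the 184 cells of the T Cell class.

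The signalling chains Cd3d and Cd3e of the T cell antigen receptor divided the class into 2 nearly equal parts, while the receptor gene Trbc2 did not. The chain Cd3d was in 50.2%, 50.4%, 50.4% and 49.4% of cells, against 99.9% of the T Cell class. Cd3d or Cd3e was found in 479 cells (51.0%), and the libraries differed little, at 51.5%, 52.9%, 51.1% and 49.7%. Foxp3 lay almost wholly among these cells: 152 of the 154 Foxp3 cells had Cd3d or Cd3e. Of the 461 cells with neither chain, 405 (87.9%) had Il1rl1 and 2 had Foxp3. Any of Cd3d, Cd3e, Cd3g, Trac, Trbc1 and Trbc2 was found in 895 of 940 cells (95.2%), and in 416 of the 461 cells (90.2%) without Cd3d and Cd3e. The constant region transcript Trbc2 alone was in 90.5% of all cells of the class and in 2.35% of endothelial cells. None of the 15 receptor complex genes had a higher CPM than in the T Cell class.

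Foxp3 and type 2 genes also met in the same cells. Of the 154 Foxp3 cells 83 (53.9%, interval 45.7% to 61.9%) had an Il1rl1 UMI, in proportions of 70.0%, 66.7%, 50.9% and 47.5% by library. The room air proportions rest on 20 and 18 Foxp3 cells, against 55 and 61 after hyperoxia. Gata3 was in 120 of the Foxp3 cells, but Arg1 in 3. Any of Il1rl1, Il13, Il5, Gata3 and the growth factor Areg was in 133 (86.4%). These shares were close to those over the whole class, where Il1rl1 was in 54.8% of cells and any of these genes in 83.7%. The whole class includes the 461 cells without Cd3d and Cd3e, of which 405 had Il1rl1. Of the 479 cells with Cd3d or Cd3e, which include 152 of the Foxp3 cells, 110 (23.0%) had Il1rl1. With every cell thinned to 1500 UMIs the share of cells with both Foxp3 and any of these type 2 genes fell from 14.1% to 3.00%, so it depends on depth.

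The T Cell class held a further 111 Foxp3 cells, or 35.1% of the 316 Foxp3 cells with any class at day 21, while the T Reg class held 48.7%. Another 174 barcodes with Foxp3 had no class. The Foxp3 cells of the T Reg class had Ctla4 in 97.4%, Icos in 95.5% and Tnfrsf4 in 72.7%, and those of the T Cell class in 79.3%, 60.4% and 47.7%. Klrg1, a receptor of effector and tissue lymphocytes, was in 51.9% against 5.41%, and Il1rl1 in 53.9% against 15.3%. In the other direction, Ccr7, the chemokine receptor for entry to lymph nodes, was in 11.7% against 71.2%. Median depths were close, at 11535 and 10701 UMIs. By these shares, which were not tested, Ccr7 was more frequent in the Foxp3 cells of the T Cell class, and Ctla4, Icos, Tnfrsf4, Klrg1 and Il1rl1 in those of the T Reg class.

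The genes most particular to the class over all other classes, by the lowest ratio of CPM in any library, were led by Cntn1 (contactin 1, an adhesion molecule). Its levels were 264, 201, 270 and 247 CPM, against at most 13.1 CPM in any other class of at least 50 cells in the same library. Arg1 followed with 273, 179, 175 and 218 CPM. Il2ra, at rank 4 by that order, was the only gene of the regulatory T cell list among the first 20. The others included Ccr8, a chemokine receptor of type 2 and regulatory lymphocytes, Il17rb and Il9r, and also Il23r, Il17a and the scavenger receptor Cd163l1, which belong to type 17 lymphocytes. These genes did not sit in the same cells. Of the cells with Cntn1, 220 and 145 were in the first and second sub-clusters described next and 1 in the third, whereas 125 of the cells with Cd163l1 were in the fourth.

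Clustering the 940 cells alone gave 8 sub-clusters, numbered 0 to 7 by size. Sub-clusters 0 and 1 held 415 cells (44.1%) that had type 2 markers and almost no Cd3d or Cd3e, although Trbc2 was in 89.0% and 83.9% of them and Trbc1 in 50.8% and 64.0%. In sub-cluster 0 (254 cells, 27.0%) Arg1 was in 95.3% of cells, Il1rl1 in 94.1%, Gata3 in 98.4%, Il5 in 33.1% and Il13 in 16.5%, and Cd3d in 1.97%. Its leading genes also held Pparg, the lipid-sensing nuclear receptor that ILC2 express. Sub-cluster 1 (161 cells, 17.1%) had Il1rl1 in 99.4% and Il2ra in 96.9%, but Il5 in 7.45% and Il13 in 1.86%, and was led by Thsd4 and Nyap2. Both were called ILC2-like. They held 1 Foxp3 cell each.

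Sub-cluster 2 (150 cells, 16.0%) was the regulatory T-like one. It held 136 of the 154 Foxp3 cells, and Foxp3 was in 90.7% of its cells, Ctla4 in 99.3%, Tnfrsf4 in 76.7%, Cd3d in 99.3% and Cd4 in 77.3%. Il1rl1 was in 54.7% and Klrg1 in 52.7%, while Arg1 was in 1.33%. The suppressive cytokine Il10 was found in 7 cells of the class, all of them here. By contrast, Ebi3, which encodes a chain of interleukin 35, was in 17.3% of these cells and in 14.2% and 21.7% of the ILC2-like sub-clusters. The other 790 cells (84.0%) of the class lay outside this sub-cluster. Foxp3 and the antigen receptor thus go with the name T Reg in 1 sub-cluster of 8, and the class as a whole is called here by the authors' name without a claim to one cell type.

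Sub-cluster 3 (131 cells, 13.9%) had the constant region Trdc of the delta receptor chain in 99.2%, Cd163l1 in 95.4%, the interleukin 23 receptor Il23r in 90.8% and the cytokine Il17a in 37.4%. Il1rl1 was in 0 of its 131 cells. It was called gamma delta type 17-like. Sub-cluster 4 (123 cells, 13.1%) was T-like, with Cd3d in 96.7%, Themis, a T cell signalling protein, in 80.5%, Cd4 in 61.0% and Foxp3 in 7.32%. Sub-cluster 5 (70 cells, 7.45%) stayed unnamed: Tcf7, a factor of naive and progenitor lymphocytes, was in 78.6%, Il23r in 68.6% and Cd3d in 61.4%.

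Sub-cluster 6 (45 cells, 4.79%) stayed unnamed too. It was led by the neutrophil genes S100a9 and S100a8 and by Fscn1 and Eln, and the endothelial genes Cldn5 and Cdh5 were in 64.4% and 57.8% of its cells. Its median depth of 16315 UMIs was the highest of the 8, and it held 15 of the 19 cells of the class that Scrublet called doublets. Sub-cluster 7 was 6 cells of the male hyperoxia library with the mast cell proteases Cma1, Tpsb2, Mcpt4 and Cpa3, and was called mast-like.

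**Figure D2:**
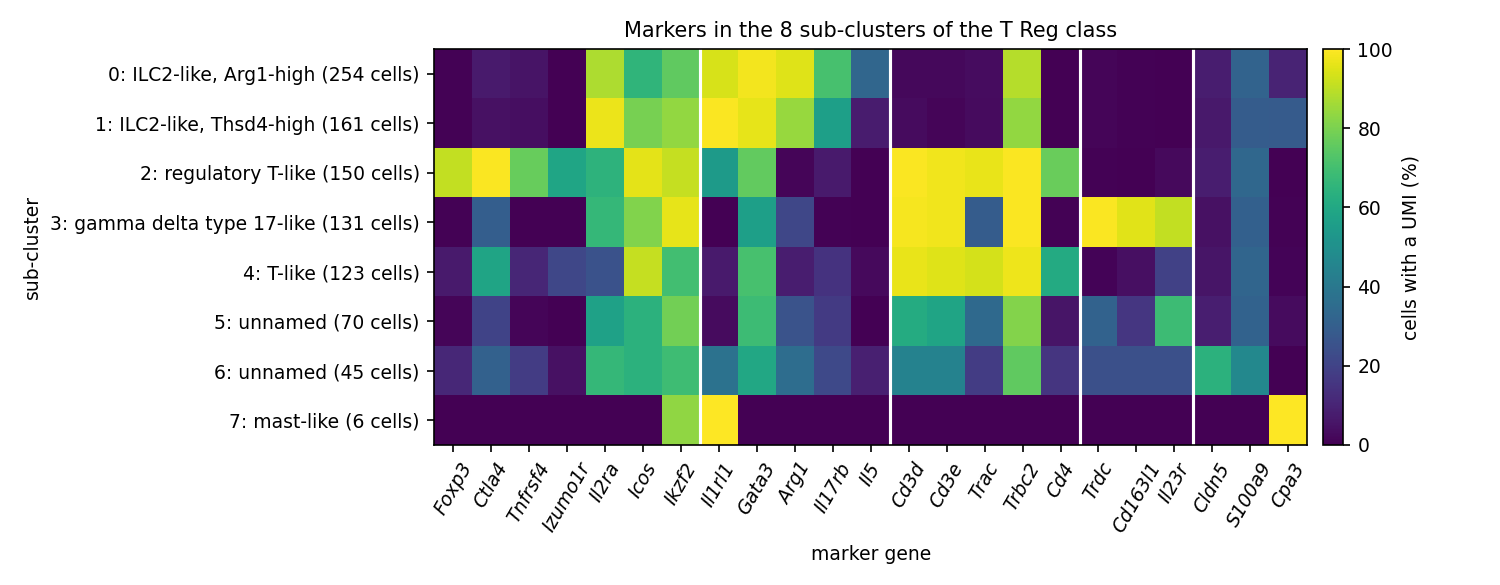
Share of cells with a UMI (colour, percent) for the marker genes in columns and the 8 sub-clusters in rows, over the 4 libraries together. Columns are grouped by white lines into regulatory T cell, type 2, antigen receptor, gamma delta type 17 and other markers. Foxp3 reaches 90.7% in sub-cluster 2 and at most 11.1% elsewhere, and Il1rl1 reaches 94.1% and 99.4% in sub-clusters 0 and 1, where Cd3d is at 1.97% and 3.11%.

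Most classed cells with a UMI of Il5, Il13 or Il17a were in the class. Of the 126 classed day 21 cells with an Il5 UMI 81.7% were T Reg cells, and of the 63 with Il13 76.2%, with 20.6% of the latter in basophils. Per cell Il13 was more frequent in basophils, at 13 of 138 cells (9.42%) against 5.11% of the T Reg class. Of the 83 cells with Il17a 85.5% were in the class, and of the 628 with Arg1 72.0%. Il1rl1 was less restricted, since 44.5% of its 1158 cells were T Reg cells. Per cell it was more frequent in basophils (104 of 138, 75.4%) and dendritic cells (306 of 498, 61.4%) than in the T Reg class (54.8%). Trdc was more frequent in the authors' class of natural killer cells, at 333 of 899 cells (37.0%), against 18.1% of the T Reg class. Of the 672 classed cells with Trdc 49.6% were natural killer cells and 25.3% T Reg cells. These shares are of cells with a class, and barcodes without one are left out of them.

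The first question for treatment is whether the class took a different share of the lung after hyperoxia. It made up 2.71% (interval 2.38% to 3.08%) of classed cells in female room air, 1.68% (1.40% to 2.01%) in male room air, 3.33% (2.95% to 3.73%) in female hyperoxia and 3.42% (3.06% to 3.82%) in male hyperoxia. Both hyperoxia libraries lay above both room air libraries. The mean difference was 1.18 percentage points, with an exact two-sided permutation p of 0.333, which is the smallest that 2 libraries against 2 can give. Of all deposited barcodes, with or without a class, the difference was 0.731 points, with 0.202 in females and 1.26 in males. Of immune cells it was 3.96 points. Of lymphoid cells it turned to -3.23 points, with 36.8%, 7.78%, 15.8% and 22.3%, so that here the groups overlapped. The T Cell class moved with this, at 2.16%, 12.5%, 9.75% and 7.91% of classed cells, and its part in the share of lymphoid cells was not tested.

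The make-up of the class differed between libraries without an order by treatment for most sub-clusters. The regulatory T-like cells were 8.66%, 16.0%, 19.8% and 17.9% of the class. Both hyperoxia libraries were higher than both room air libraries. The interval of female room air (5.37% to 13.1%) lay below those of both hyperoxia libraries, while that of male room air, with 19 such cells, overlapped all the others (9.90% to 23.8%). The ILC2-like cells together were 45.9%, 37.8%, 43.9% and 45.5%, with overlapping groups. Within them the Arg1-high sub-cluster was 35.9%, 17.6%, 23.0% and 27.6%, and the gamma delta type 17-like cells were 22.1%, 9.24%, 8.63% and 14.4%. In both, female room air was highest and the sexes moved in opposite directions with treatment.

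**Figure D3:**
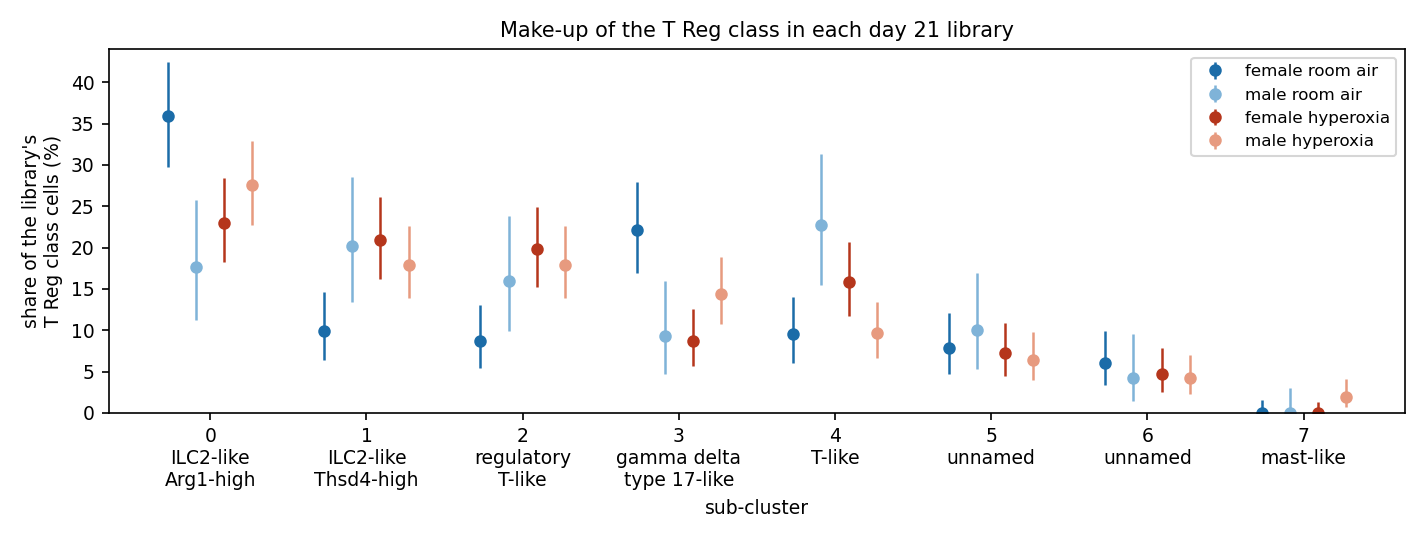
Share of each sub-cluster (vertical axis, percent of the T Reg class cells of the library) by day 21 library, with exact 95% binomial intervals as bars. Female room air is the highest library in sub-clusters 0 and 3, at 35.9% and 22.1%, and the lowest in sub-clusters 1 and 2, at 9.96% and 8.66%, and sub-cluster 7 is seen in male hyperoxia alone.

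Gene expression in the class was then compared between hyperoxia and room air, with UMIs summed per library, sex as a covariate and edgeR's quasi-likelihood test with Benjamini-Hochberg adjustment. No gene passed an adjusted p under 0.05: 0 of 11068 genes tested, or 0%. At an unadjusted p under 0.05 there were 289 (2.61%), 195 (1.76%) with a higher level after hyperoxia and 94 (0.849%) with a lower one. DESeq2 called 1 gene (0.00904%), Calca. Between the sexes the same DESeq2 fit did not call the Y-linked genes, as given below. Leaving out a library, with sex no longer in the model, gave 9 calls without female room air, 66 without male room air, 2 without female hyperoxia and 4 without male hyperoxia. The fit had 1 residual degree of freedom.

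Calca (chromosome 7, 114631478 to 114636357), which encodes the neuropeptide CGRP that ILC2 can make, had 264, 94, 34 and 45 UMIs, or 92.6, 70.0, 10.4 and 14.1 CPM. Both room air libraries were above both hyperoxia libraries, and the log2 change was -2.72 (SE 0.25) with an edgeR adjusted p of 0.317 and a DESeq2 adjusted p of 0.000127. Over 17 alternatives the adjusted p ran from 7.45e-26 to 1.00. In female room air 206 of the 264 UMIs came from 1 cell. That cell had 32031 UMIs and 7134 genes and was not called a doublet. It also held 157 UMIs of Nrg1, 110 of Resp18, 44 of the synaptic gene Syt1 and 18 of the epithelial gene Epcam, beside 4 of Cd3e and 1 of Foxp3. Without it and the 3 other cells that each held at least 20 UMIs and over 50% of their library's UMIs of Calca, Xcl1 or Ccl1, the Calca change was -1.67 (SE 0.38, edgeR adjusted p 0.999), and DESeq2 made no call. Calca was found in 0 of 2602 cells of the T Cell class, which allows up to 0.115% of cells with a UMI.

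Single cells carried other large differences. The chemokine Xcl1 had 1, 4, 245 and 112 UMIs, and 227 of the female and 105 of the male hyperoxia UMIs lay in 1 cell each, the latter called a doublet. Its log2 change of 5.50 (SE 0.69) had an edgeR adjusted p of 0.417. Ccl1, the ligand of Ccr8, had 8, 3, 171 and 23 UMIs, of which 136 were in 1 cell of the female hyperoxia library. Its log2 change of 3.62 went to 1.40 without the single cells. Tph1, the tryptophan hydroxylase of serotonin synthesis, had 0, 0, 14 and 39 UMIs, and 4 of the 11 cells with it were mast-like. Such genes were higher in both hyperoxia libraries by their sums, yet the sums rested on a few cells.

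The other genes with the smallest p and a higher level after hyperoxia were mainly endothelial. The tight junction gene Cldn5 stood at 10.5, 15.6, 44.5 and 56.6 CPM (log2 change 1.98, SE 0.23, edgeR adjusted p 0.415), and the receptor subunit Ramp2 at 15.8, 16.4, 52.1 and 57.9 CPM (1.78, SE 0.21, edgeR adjusted p 0.415). The basement membrane collagen Col4a1 stood at 8.07, 14.9, 31.6 and 51.3 CPM. In each the groups did not overlap. These genes were picked by a small p and 1 direction in both sexes, which favours groups that do not overlap. The share of all genes tested with such groups was not counted. Of the endothelial marker list 8 of 9 genes were tested, none was called, 8 had a higher level and 7 an unadjusted p under 0.05, with a median log2 change of 1.37 against a median of -0.00038 over all genes tested. Their summed level was 191, 191, 360 and 389 CPM, and in the T Cell class 365, 281, 346 and 397 CPM. No listed endothelial gene was at 0. Most of these UMIs were in sub-cluster 6, with 310 of the 377 of Cldn5 and 282 of the 422 of Ramp2. Scrublet called 1.30%, 0.840%, 2.88% and 2.24% of the class doublets, and 0.952%, 0.990%, 3.30% and 3.73% of all classed cells, so both hyperoxia libraries were higher. The part of doublets in the endothelial values was not tested. In the ILC2-like cells alone the Cldn5 change was -0.39.

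Frmd5, which encodes a FERM domain protein, had 1239 of its 1432 UMIs in the regulatory T-like cells. UMIs of it were found in 17, 5, 24 and 28 cells. It stood at 99.6, 64.0, 178 and 151 CPM (log2 change 1.03, SE 0.15, edgeR adjusted p 0.776). The integrin chain Itgb8, which activates latent TGF-beta, stood at 2.11, 1.49, 13.2 and 10.3 CPM, with 69 of its 84 UMIs in the same sub-cluster. Both genes were picked by a small p and 1 direction in both sexes, and for both the hyperoxia libraries were above the room air libraries. So was the share of the regulatory T-like cells (8.66%, 16.0%, 19.8% and 17.9%), whose part in these values was not tested. Without sub-clusters 6 and 7 Frmd5 was 1 of 5 genes called (0.0472% of 10586), with a log2 change of 1.14 and an edgeR adjusted p of 0.0422, within a range of 3.39e-07 to 1.00 over 17 alternatives. The others were Calca, Xcl1, Ccl1 and Cd74, the invariant chain of antigen presentation. For Frmd5 the SE was 0.156 here and 0.15 in the whole class, while the unadjusted edgeR p was 1.99e-05 here and 0.000491 there. The weight of a gene's own spread differed between the fits, so their counts of calls are not comparable. This holds for the next fit as well. In the lymphocytes of sub-clusters 2 to 5 alone Xcl1 was the 1 gene called (0.0107% of 9357).

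Among genes with a lower level after hyperoxia, the chemokine receptor Ccr9 stood at 15.1, 45.4, 6.74 and 6.57 CPM (log2 change -1.99, SE 0.45). The gene 1700113H08Rik, found mainly in the ILC2-like cells, stood at 195, 177, 137 and 127 CPM (-0.49, SE 0.13), and Rcbtb2 at 92.3, 106, 68.7 and 70.1 CPM (-0.50, SE 0.15). The groups did not overlap for these 3 genes, and none passed the test, with edgeR adjusted p of 1.00 each. They too were picked by a small p and 1 direction in both sexes, which favours such groups. The gamma chain constant region Tcrg-C2 stood at 63.2, 77.4, 38.0 and 51.0 CPM. It is similar in sequence to the other gamma constant regions, and reads may be divided between them. The other named genes with lower levels were Pam (-1.24, with 59 of the 95 UMIs of female room air in 1 cell), Unc93b1 (-1.10), Gria3 (-1.74), Trmt61b (-0.90) and Gm42047 (-0.98), and those with higher levels Clec1a (1.84), Tmem100 (1.27) and Esam (2.60), all as log2 changes.

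**Figure D4:**
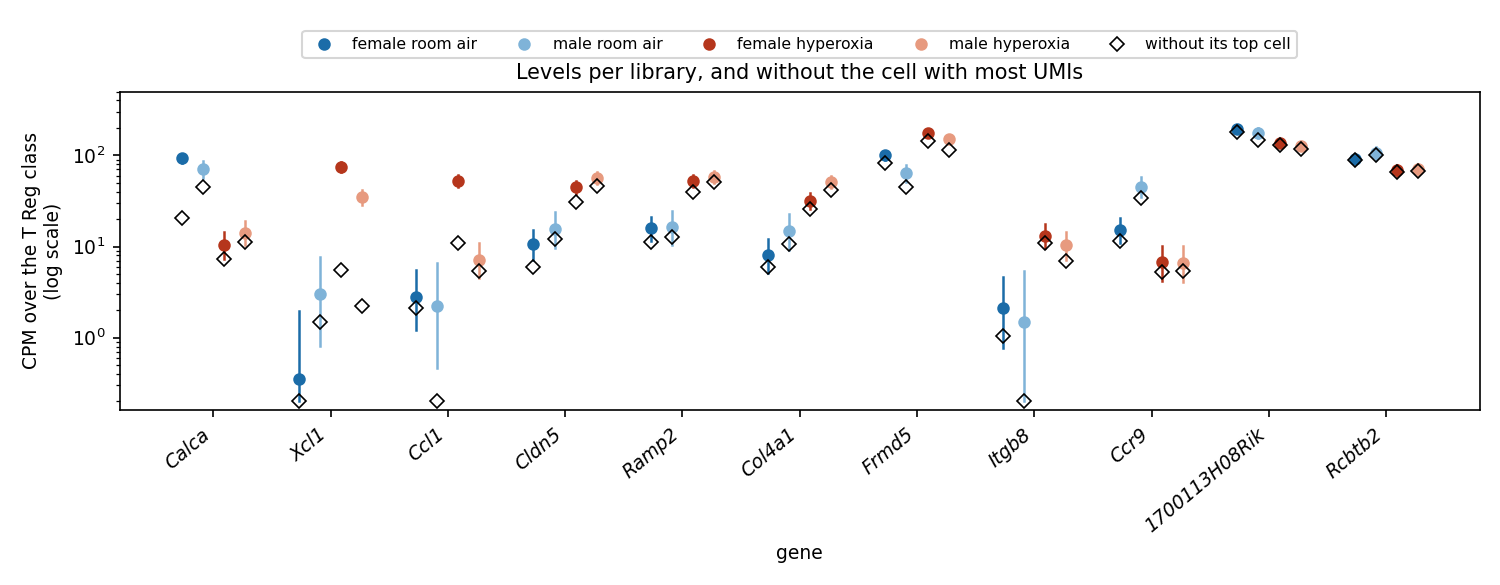
Level in the T Reg class (vertical axis, CPM on a log scale) of 11 genes in each day 21 library, with exact 95% Poisson intervals as bars; open diamonds are the level without the cell that held most UMIs of the gene, and values under 0.2 are drawn at 0.2. The diamonds fall far below the points for Calca in female room air, for Xcl1 in both hyperoxia libraries and for Ccl1 in female hyperoxia, and stay close to them for Rcbtb2. For Cldn5 the level goes from 10.5 to 6.02 CPM in female room air and from 44.5 to 30.8 CPM in female hyperoxia.

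**Figure D5:**
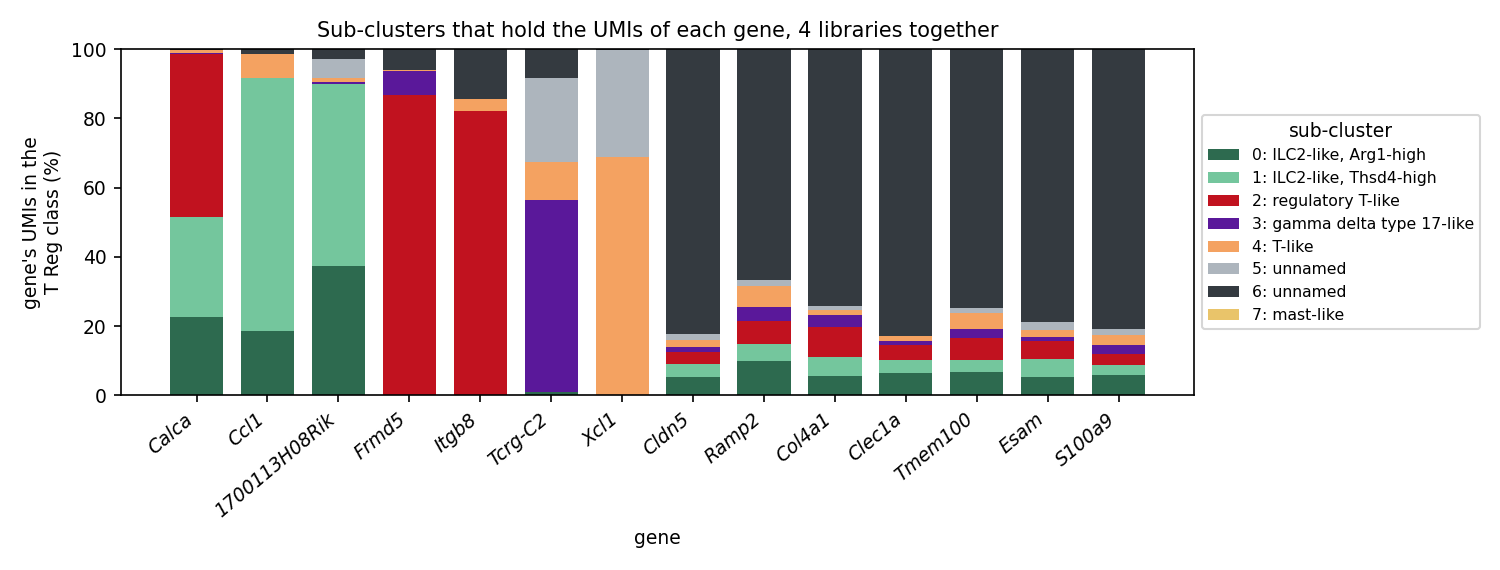
Share of the UMIs of 14 genes in the T Reg class (vertical axis, percent, 4 libraries together) by sub-cluster. Cldn5, Ramp2, Col4a1, Clec1a, Tmem100, Esam and S100a9 come mostly from sub-cluster 6, Frmd5 and Itgb8 from the regulatory T-like sub-cluster 2, and Ccl1 and 1700113H08Rik from the ILC2-like sub-clusters 0 and 1.

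The lists were read out from the same fit, and none of their genes was called. Over all genes tested 2.61% had an unadjusted p under 0.05, and each list's count is read beside that share. Of 11 tested genes of the regulatory T cell list none had one, 9 were higher and 2 lower after hyperoxia, and the median log2 change was 0.32. Foxp3 stood at 32.98, 58.1, 60.7 and 65.7 CPM (log2 change 0.54, SE 0.23). Within the regulatory T-like sub-cluster Foxp3 stood at 260, 302, 279 and 319 CPM, where the groups overlapped. Il2ra stood at 255, 257, 295 and 284 CPM (0.19, SE 0.13) and Ctla4 at 233, 413, 337 and 321 CPM (0.10, SE 0.24). Of 19 tested genes for products and homing of regulatory T cells 2 had an unadjusted p under 0.05, both higher. The ectoenzyme CD73 (Nt5e), which makes adenosine, stood at 67.7, 93.8, 114 and 116 CPM (0.55, SE 0.17). Tnfrsf9, the costimulatory receptor 4-1BB, stood at 10.9, 43.2, 55.8 and 51.3 CPM.

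Of 19 tested type 2 genes Calca, Ccl1 and Tph1, whose sums rested in part on single or mast-like cells as given above, had an unadjusted p under 0.05, and the median log2 change was 0.07. Il1rl1 stood at 334, 308, 315 and 385 CPM (log2 change 0.12, SE 0.14), Gata3 at 351, 337, 375 and 322 CPM (0.02, SE 0.13) and Arg1 at 273, 179, 175 and 218 CPM (-0.18, SE 0.22). For these genes the groups overlapped. Il13 stood at 9.47, 4.47, 7.36 and 10.3 CPM and Il5 at 19.3, 7.45, 9.81 and 15.01 CPM, from 27, 6, 24 and 33 UMIs of Il13 and 55, 10, 32 and 48 of Il5. Of 11 tested gamma delta and type 17 genes 10 were lower and 1 higher, with a median of -0.27. Il17a stood at 55.4, 55.1, 6.13 and 45.0 CPM, from 28, 3, 8 and 32 cells. Female hyperoxia was lowest by CPM, but the male room air level rested on 3 cells, and by share of cells male room air (2.52%) and female hyperoxia (2.88%) were alike low.

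Of 10 glucocorticoid-induced genes 4 had an unadjusted p under 0.05, all higher, against 2.61% of all genes tested, and the median log2 change was 0.37. The transcription factor Klf9 stood at 76.8, 68.5, 105 and 119 CPM (0.62, SE 0.15), the stress-induced inhibitor of mTOR Ddit4 at 65.3, 60.3, 79.1 and 98.5 CPM, and Tsc22d3, which encodes the leucine zipper GILZ, at 173, 173, 222 and 212 CPM. All 3, named for their unadjusted p, were higher in both hyperoxia libraries. Fkbp5, a co-chaperone of the glucocorticoid receptor, stood at 265, 147, 278 and 354 CPM. Of 14 immediate early and heat shock genes, which tissue dissociation can induce, 12 had a higher level and 2 a lower one. Their median was 0.28, and Fosb and Jun had an unadjusted p under 0.05. The summed level of this list was 2220, 2362, 2460 and 2674 CPM, and its part in the values of the glucocorticoid-induced genes was not tested. Dusp1 is on both lists. Of 17 interferon-stimulated genes Oasl2 and Bst2 had an unadjusted p under 0.05, both lower, and the median was -0.17. The summed level of the list was 963, 2249, 1496 and 1344 CPM, so that male room air was highest, female room air lowest and the groups overlapped. Of the interleukin 2, 7 and 33 receptor and signalling genes 1 of 15 had an unadjusted p under 0.05, the survival factor Bcl2, at 467, 441, 628 and 582 CPM.

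The same comparison was made in the 415 ILC2-like cells alone, a choice made after the sub-clusters were seen. The libraries held 106, 45, 122 and 142 of these cells, of which 23, 24, 58 and 56 were in the Thsd4-high sub-cluster 1. The part of this mix in the values below was not tested. edgeR's quasi-likelihood test called 8 of 8884 genes (0.09%), with 434 (4.89%) at an unadjusted p under 0.05. The p-values of this fit follow a normal distribution of the log2 change over its SE. A gene's own spread between libraries thus did not enter them, unlike in the fit of the whole class. The counts of calls in these 2 fits are therefore not comparable. The cytokine RANKL (Tnfsf11) stood at 70.2, 82.6, 160 and 122 CPM (log2 change 0.96, SE 0.19, edgeR adjusted p 0.00131). Fkbp5 stood at 346, 225, 417 and 491 CPM (0.66, SE 0.14, edgeR adjusted p 0.00705). The adaptor Fyb stood at 242, 239, 148 and 157 CPM (-0.64, SE 0.15, edgeR adjusted p 0.0389). For the RNA Gm20186 the log2 change was 1.02 (edgeR adjusted p 0.0405).

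The other 4 calls in ILC2-like cells each leaned on 1 library. Calca (log2 change -1.88, edgeR adjusted p 9.88e-11) stood at 47.4, 208, 25.6 and 33.6 CPM, and Ccr9 at 9.65, 67.0, 5.44 and 7.47 CPM, so that male room air stood apart. Ccl1 stood at 7.02, 6.70, 122 and 14.9 CPM, with 136 of the 157 UMIs of female hyperoxia in 1 cell. Xist was called in this fit, with 942 CPM in female room air and 507 CPM in female hyperoxia. This was a trait of the female hyperoxia library in other classes too, where Xist was in 55.8% of the T Cell class and 64.5% of endothelial cells, against 92.9% and 97.1% in female room air. The same fit called 24 genes (0.27%) between the sexes, Calca, Ccl1 and Ccr9 among them. Of the other type 2 genes, Il1rl1, Arg1, Il13 and Il5 did not pass the test in these cells. Il1rl1 stood at 717, 761, 654 and 713 CPM, Arg1 at 586, 415, 410 and 490 CPM, Il13 at 21.9, 11.2, 18.7 and 23.9 CPM and Il5 at 46.5, 17.9, 23.3 and 35.1 CPM.

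Whether the class responded differently from the T Cell class was tested as the interaction of class and treatment, with each library as a block. edgeR's quasi-likelihood test called 0 of 11611 genes (0%), with 312 (2.69%) at an unadjusted p under 0.05, and DESeq2 called 2 (0.0172%). Xcl1 was 1 of them, and in the T Cell class it stood at 86.7, 32.7, 18.3 and 2.69 CPM. The other was Penk, which encodes the opioid precursor proenkephalin. It had 0, 0, 8 and 27 UMIs in the T Reg class, all in the regulatory T-like sub-cluster and 21 in 1 cell, and 36, 22, 1 and 0 UMIs in the T Cell class. Without female room air 107 genes passed and without male room air 297, and without either hyperoxia library none did. The named genes with the smallest p were Myb, Rnf157, H2-Eb1 and H2-Aa, with a more positive change in the T Reg class, and Atp1b1, Ccr9, Gria3, Pam and Rapgef4, with a more negative one. The edgeR adjusted p of these 9 ran from 0.704 to 1.00.

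Between the sexes edgeR's quasi-likelihood test, in the fit with treatment as a covariate, called 5 of 11068 genes (0.0452%). Of these 4 were sex-linked: Xist stood at 845, 0.745, 436 and 0.313 CPM, and Uty, Ddx3y and Eif2s3y had 0 UMIs in both female libraries. The neutrophil alarmin S100a9 was the fifth, at 284, 34.3, 279 and 39.7 CPM (log2 change 2.88 for female against male, SE 0.15, edgeR adjusted p 0.00748). Of its 1891 UMIs 1531 were in sub-cluster 6, and 435 of the 909 in female hyperoxia were in 1 cell. Without the cells called doublets its change was 0.98 (edgeR adjusted p 1.00, within a range of 9.23e-57 to 1.00 over 18 alternatives), and without sub-clusters 6 and 7 it was -0.17. Neither passed the test. At an unadjusted p under 0.05 there were 298 genes (2.69%). DESeq2 called 3 genes (0.0271%): Xist, S100a9 and S100a8. It called none of Uty, Ddx3y and Eif2s3y, although these had 0 UMIs in both female libraries. edgeR called 10 genes in sub-clusters 2 to 5 (0.107%) and 9 without sub-clusters 6 and 7 (0.085%). Without the 4 cells that held most Calca, Xcl1 or Ccl1 of their library it called 3 (0.0272%). Neutrophils made up 21.8%, 13.8%, 10.4% and 12.3% of classed cells, and their part in the S100a9 levels was not tested.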

How the data were processed

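Single-cell suspensions of mouse lung were sequenced as 10x 3' libraries. The authors' deposited files hold raw UMI counts per gene and barcode, with a class name per barcode; the class names are the authors' other annotation, and barcodes without one were left out. Per the file headers the day 21 counts came from Cell Ranger 7.0.1 and the day 1 counts from 6.0.0; the submitters' processing notes list Cell Ranger 6.0.0, Seurat 4.1.1 and mm10. Gene positions are from a GRCm38 annotation.

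Counts were summed over the class per library (2850216, 1343003, 3262036 and 3197663 UMIs) and scaled to CPM. edgeR 4.0.16 (TMM, filterByExpr, quasi-likelihood test, Benjamini-Hochberg, threshold 0.05) compared treatment with sex as a covariate and the reverse, on 1 residual degree of freedom, and the difference from the T Cell class with the library as a block, on 2. DESeq2 1.42.0 was an alternative. The 940 cells were clustered with scanpy 1.11.5 (2000 variable genes, 20 components, 15 neighbours, Leiden resolution 0.5). A sub-cluster was given a name only from listed markers. Scrublet called 19 doublets in the class, which were kept. Code for the tests was tested on simulated data.

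Named genes were the list members, every called gene, otherwise up to 10 genes a direction (5 for the difference) with the smallest p, at least 20 UMIs in both libraries of the higher side and 1 direction in both sexes, and the 20 leading genes of the class. Genes named for their single cells, cells or sub-clusters, and the genes of the ILC2-like fit, were chosen after their values were seen. The members and lists were chosen with earlier results of these data known. The alternatives were another tool, no filter, other covariates, each library left out, equal cell numbers, doublets left out, thinning to 1500 UMIs and other clustering resolutions; those using sub-clusters, single cells or Xist were added after the data were seen. Not every list or listed gene is reported here.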

Additional observations from a re-analysis of the deposited data

Results flagged for a closer look

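Several shares differed between hyperoxia and room air in opposite directions in females and males. With 1 library per sex and treatment these differences between the sexes were not tested. As a share of lymphoid cells the class was 21.0 percentage points lower after hyperoxia in females (-21.0) and 14.6 points higher in males, a difference of -35.6 points, and the intervals of the libraries compared did not overlap in either sex. The Arg1-high ILC2-like sub-cluster 0 was -12.9 points in females and 9.92 in males, a difference of -22.8. For the Thsd4-high sub-cluster 1 the values were 10.9 and -2.22 points, a difference of 13.1. For both sub-clusters the intervals of the female libraries lay apart and those of the male libraries overlapped.

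The gamma delta type 17-like sub-cluster 3 was -13.4 points in females and 5.18 in males, a difference of -18.6, again with overlapping intervals in males. The T-like sub-cluster 4 was 6.30 points in females and -13.1 in males, a difference of 19.4, with overlapping intervals in females. For cells with a Ctla4 UMI the values were 6.17 and -3.12 points, a difference of 9.30, and for Il2ra -4.10 and 5.37 points, a difference of -9.47. For these 2 genes the intervals overlapped within each sex.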

How the results depend on the processing

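With 1 library per group, no gene expression result had a replicate, and a library left out leaves the lone library of a group to vary like the rest. The edgeR fits on part of the cells also differed in the weight given to a gene's own spread. A change in the count of calls below is therefore not a measure of changes uncovered or lost. No paired analysis was possible because each sex and treatment had 1 library, so no replicate numbers could pair samples; the sex term already set treatment against room air within each sex, and without it the count of genes called for treatment was 0. For treatment the count of called genes went from 0 to 1 with DESeq2, 98 without a filter on low counts, 8 in ILC2-like cells, 1 in sub-clusters 2 to 5 and 5 without sub-clusters 6 and 7, and from 2 to 66 with a library left out. For sex it went from 5 to 3 with DESeq2, 130 without a filter, 11 without treatment in the model, 10 with equal cell numbers, 24 in ILC2-like cells, 10 in sub-clusters 2 to 5, 9 without sub-clusters 6 and 7, 3 without the 4 cells rich in Calca, Xcl1 or Ccl1, 3 without the Xist-free cells of female hyperoxia, 7 with upper-quartile scaling, 4 without doublets, and from 6 to 75 with a library left out. For the difference from the T Cell class it went from 0 to 2 with DESeq2 and 94 without a filter, and from 0 to 297 with a library left out.

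The share of the class turned to -3.23 points of lymphoid cells. Of single genes Cldn5 turned to -0.39 in ILC2-like cells, Tmem100 to -0.63 in sub-clusters 2 to 5, and the sex difference of S100a9 to -0.35 there and -0.17 without sub-clusters 6 and 7. Shares of cells with a marker depend on depth: asking for 2 UMIs gave 13.8% for Foxp3, 26.6% for Ctla4, 55.2% for Il2ra, 59.8% for Icos and 10.0% for Foxp3 with a type 2 gene, and thinning gave 7.07%, 18.5%, 29.3%, 37.8% and 3.00%. For the 20 genes named for treatment, 303 of 339 values kept direction and side of the threshold, 34 passed it and 2 reversed. The cause was not tested.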

Other observations

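At postnatal day 1 no class had this name. Foxp3 was found there in at most 2 cells of any class. Il1rl1 was found in 29 of 32 and 17 of 24 cells of the mast cell and basophil class, in 7 of 137 and 8 of 97 NK cells and in 9 of 134 and 11 of 114 B cells. Of the interstitial macrophage class numbered 2 it was in 3 of 13 and 2 of 17. Arg1 was found in 22 and 11 of these NK cells.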
